A study of Homo sapiens with 52 samples.

Results

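Knockdown of HNRNPA1 was studied in the cell body (soma) fraction of i3Neurons, which are neurons made from the human induced pluripotent stem cell line WTC11 by a doxycycline-induced transcription factor. The comparison uses 12 of the 52 libraries of the series, all of those that the labels place in the hnRNPA1 experiment and the soma fraction: 6 libraries of hnRNPA1-knockdown neurons, samples 1 to 6, and 6 libraries of neurons with a nontargeting-sgRNA, samples 1 to 6. Both groups carry the CRISPR interference system, in which a single guide RNA (sgRNA) directs a repressor to a promoter, and they differ in the guide. Guides were delivered to the stem cells before differentiation, transduced cells were selected, the neurons were replated on day 3 of induction onto inserts with 1 µm pores, and soma and neurites were harvested as separate fractions on day 17. Libraries were made from 10 ng of total RNA with version 3 of a pico-input total RNA kit. The labels give neither the number of guides per target nor their sequences, and nothing states that the samples of a group are separate cultures, so every p-value here is set by the library-to-library spread, part of which may be technical.

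hnRNP A1 is an abundant nuclear RNA-binding protein of the A/B family of heterogeneous nuclear ribonucleoproteins. It packages nascent transcripts, represses splice sites, contributes to microRNA processing and shuttles to the cytoplasm, where it binds mRNA and enters stress granules. Mutations in its gene cause rare forms of motor neuron disease and multisystem proteinopathy, and TDP-43, another RNA-binding protein of motor neuron disease, is the target of the other knockdown in the series.

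The soma libraries held 8 to 16.2 × 1e6 counts in knockdown neurons and 10.9 to 19.4 × 1e6 in controls, and 19812 genes passed the filter on low counts. All 15 pan-neuronal markers were measured, with summed levels of 11800 to 14600 CPM (counts per 1e6 counts, scaled by the TMM method) in knockdown libraries and 10500 to 12600 CPM in controls. Of 15 astrocyte and oligodendrocyte markers 9 were not tested, GFAP, AQP4 and OLIG2 among them, and the pluripotency genes POU5F1 and NANOG also fell below the filter. The 6 tested glial markers summed to 259 to 290 CPM in knockdown libraries and 269 to 319 CPM in controls. The 6 tested pluripotency markers summed to 82.9 to 90.7 CPM in knockdown libraries and 84.0 to 91.2 CPM in controls, and 1 of them was called higher. The 19 tested cycling markers summed to 129 to 144 CPM in knockdown libraries and 124 to 141 CPM in controls. The summed levels of the pluripotent, cycling, glial and mesenchymal lists overlapped between groups. Summed progenitor markers did not overlap, at 429 to 481 CPM in knockdown libraries and 354 to 401 CPM in controls, and most of that sum was NES. Libraries also differed within groups: small structured RNAs (spliceosomal, ribosomal, 7SL, 7SK and small nucleolar RNA) took 7.87 to 9.75% of counts in knockdown libraries and 4.43 to 8.88% in controls, with controls 3, 4 and 5 at 4.43, 4.62 and 4.46%. Knockdown sample 3 and control sample 5 lay at the high end of their groups on the first principal component, which held 39.1% of the variance among the 12 libraries. Results were therefore also computed without those samples.

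HNRNPA1 itself was lower in every knockdown library. Its level was 125 to 152 CPM in knockdown libraries, with a median of 142 CPM, against 329 to 379 CPM in controls, with a median of 368 CPM. The groups were far apart, and the means of 141 ± 9.35 and 361 ± 20.7 CPM (SD, n = 6 each) left 39% of the control level, a log2 change of -1.36 ± 0.06 (SE; adjusted p = 6.33e-18, edgeR's quasi-likelihood test with Benjamini-Hochberg adjustment over the 19812 genes, as for every adjusted p of a gene below).

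HNRNPA1 shares its promoter region with a neighbour. It lies on the plus strand of chromosome 12 (GRCh38, chr12:54280193-54287088), and CBX5, which encodes the heterochromatin protein HP1 alpha, is transcribed in the opposite direction from a start 70 bases away. The sequence is shown because both genes fell in knockdown libraries. It is the RefSeq promoter window of CBX5 on GRCh38, 5′ to 3′ on the strand of CBX5. Capitals mark the 70 bases between the CBX5 start of that window and the GENCODE start of HNRNPA1. The HNRNPA1 start lies at their left end and reads to the left.
HNRNPA1 and CBX5 promoter (chr12:54280073-54280372, minus strand): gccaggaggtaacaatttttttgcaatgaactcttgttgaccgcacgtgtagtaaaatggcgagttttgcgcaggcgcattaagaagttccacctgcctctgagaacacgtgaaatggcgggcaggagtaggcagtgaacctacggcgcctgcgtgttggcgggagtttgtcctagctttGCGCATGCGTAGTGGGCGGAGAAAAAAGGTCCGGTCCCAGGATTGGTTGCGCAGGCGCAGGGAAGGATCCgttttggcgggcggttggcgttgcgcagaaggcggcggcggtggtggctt
These 300 bases hold 25 CpG dinucleotides and are 57.3% G or C.

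CBX5 was measured at 726 to 871 CPM in knockdown libraries, with a median of 754 CPM, and at 839 to 995 CPM in controls, with a median of 909 CPM. The groups overlapped only through knockdown sample 1, the highest of its group. The log2 change was -0.23 ± 0.05 (adjusted p = 0.00696), and it was -0.18 without controls 3, 4 and 5, where the call was lost (adjusted p = 0.11). In neurons with TDP-43 knockdown CBX5 changed by 0.08 on the log2 scale, and the HNRNPA1 and TDP-43 effects on it differed (adjusted p = 0.0284). Of 59 annotated genes within 500 kb of the HNRNPA1 start, 11 were tested, and apart from HNRNPA1 itself 1 was called higher and 1 lower, beside 7.09% of all tested genes called in either direction. The lower one was CBX5, and the higher one was LINC02381, a long noncoding RNA measured at 2.58 to 3.26 CPM in knockdown libraries and 1.25 to 2.20 CPM in controls (log2 change 0.71 ± 0.16, adjusted p = 0.00306). Its call was also lost without controls 3, 4 and 5. SMUG1, COPZ1 and ZNF385A, 3 neighbours in the same window, had log2 changes of 0.12, 0.03 and 0.28 and did not pass.

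**Figure D1:**
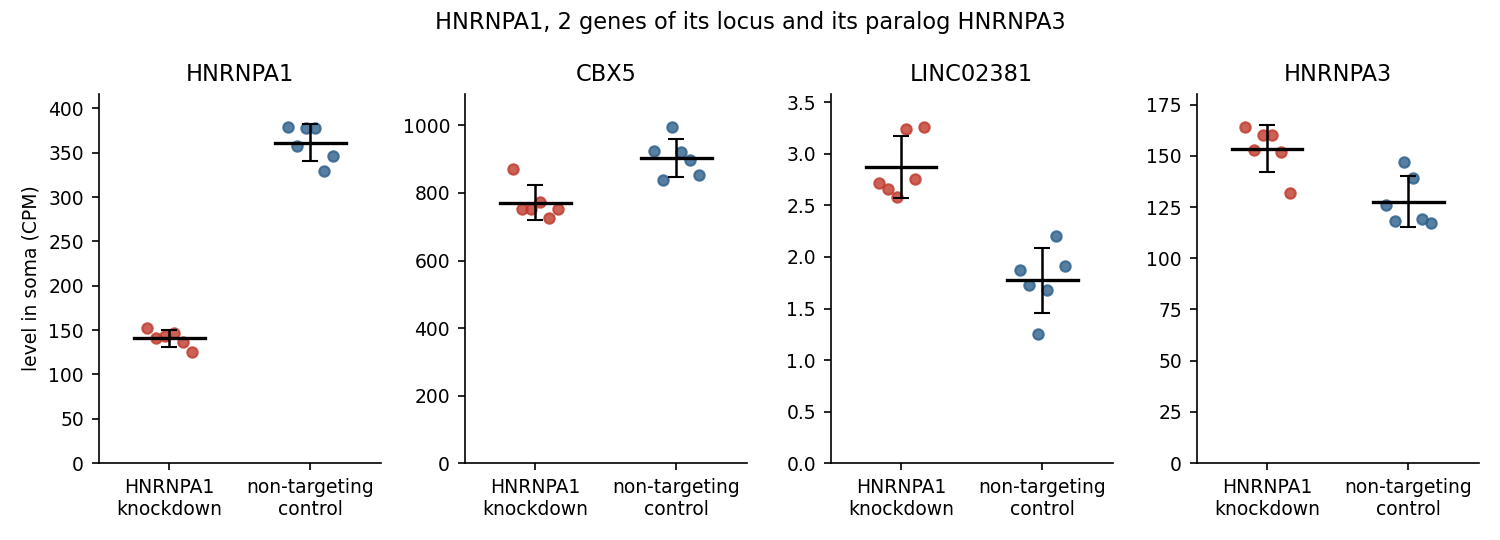
Level in CPM of HNRNPA1, its neighbours CBX5 and LINC02381, and its paralog HNRNPA3, in the 6 HNRNPA1-knockdown soma libraries (left in each panel) and the 6 non-targeting control libraries (right); dots are libraries, and bars are the mean with its SD. HNRNPA1 sits at 125 to 152 CPM in the knockdown libraries and at 329 to 379 CPM in controls, while the CBX5 values of 726 to 871 and 839 to 995 CPM touch.

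Among the 12 tested copies of HNRNPA1 in the genome, which are mostly processed pseudogenes, 5 were called lower and none higher. The shares over all genes were 3.3% lower and 3.79% higher. The retrocopy HNRNPA1L3, whose transcript is 99.2% identical to the HNRNPA1 mRNA, fell by 1.32 on the log2 scale, and the pseudogenes HNRNPA1P7 and HNRNPA1P10, at 99.1 and 99.5% identity, fell by 1.33 and 0.96. HNRNPA1P16, at 94.0% identity, had a log2 change of 0.18 and was not called. The sources used here do not say how reads matching several copies were counted, so HNRNPA1 reads assigned to copies cannot be told apart from expression of the copies. The paralogs moved less. HNRNPA3, another A/B family protein, was measured at 132 to 164 CPM in knockdown libraries, with a median of 157 CPM, and at 117 to 147 CPM in controls, with a median of 123 CPM. The groups overlapped, and the rise of 0.26 ± 0.06 (log2, adjusted p = 0.00728) was lost without knockdown sample 3 and control sample 5. HNRNPA2B1, an abundant paralog, changed by 0.08 ± 0.06 and was not called.

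Among other RNA-binding and RNA-decay genes, none of 26 RNA granule genes was called, 1 of 23 SR splicing factor genes fell, and of 25 neuronal splicing regulators 3 fell and none rose, beside 3.79% of all genes called higher and 3.3% called lower. Of 34 hnRNP proteins outside the A/B family 3 rose and 2 fell, and of 16 nonsense-mediated decay factors 2 rose and 1 fell. RBM3, a cold-inducible RNA-binding protein, fell by 0.23 ± 0.06 (log2, adjusted p = 0.00783). UPF3B, a nonsense-mediated decay factor that sits at exon junctions, rose by 0.30 ± 0.07 (log2, adjusted p = 0.00797), at 38.6 to 49.5 CPM in knockdown libraries and 30.3 to 41.9 CPM in controls. Among 32 genes linked to amyotrophic lateral sclerosis and frontotemporal dementia 2 were called, HNRNPA1 and C9orf72, whose repeat expansion is a frequent cause of both diseases. C9orf72 was measured at 31.4 to 35.5 CPM in knockdown libraries and 36.3 to 42.6 CPM in controls, without overlap (log2 change -0.25 ± 0.06, adjusted p = 0.0125), a call that was lost without controls 3, 4 and 5.

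Across the transcriptome 1404 of the 19812 genes were called at an adjusted p under 0.05, which is 7.09%. Of these 751 were higher (3.79% of those tested) and 653 were lower (3.3%). The counts called in each gene list below are to be read beside these shares. The median log2 change over all genes was 0.00. Most changes were small: 367 of the higher and 85 of the lower genes moved by more than 1.5-fold, and 74 and 15 by more than 2-fold. Knockdown sample 1, the library with the fewest counts, was the highest of the knockdown libraries for 197 of the 367 genes that rose by more than 1.5-fold. Without controls 3, 4 and 5 the counts were 307 higher and 508 lower. That fit kept 243 of the 751 higher calls and 323 of the 653 lower calls. All 1404 genes kept their direction, but they had been called with mostly the same libraries, so this is no independent check. Protein-coding genes leaned slightly down, with 464 higher and 573 lower of 13928.

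Transcription factors that pattern the nervous system were among the protein-coding genes that moved most. Of 28 tested factors of the forebrain and eye, 8 rose and 2 fell, with a median log2 change of 0.16. Among all genes 3.79% were called higher and 3.3% lower. PRDM8, a histone-methyltransferase-family repressor of neural development, was measured at 7.21 to 9.26 CPM in knockdown libraries, with a median of 8.48 CPM, against 2.57 to 3.40 CPM in controls, with a median of 2.86 CPM. The lowest knockdown library was above the highest control by more than the range of the controls, and the log2 change was 1.56 ± 0.12 (adjusted p = 1e-10). PAX6, the eye and dorsal forebrain regulator, had 7.16 to 11.1 CPM in knockdown libraries and 2.81 to 4.39 CPM in controls, again without overlap (log2 change 1.27 ± 0.11). FEZF1, a forebrain and olfactory zinc finger repressor, was at the edge of detection, at 0.878 to 1.74 CPM in knockdown libraries and 0.417 to 0.955 CPM in controls, and rose by 0.96 ± 0.22. PAX6 is also one of the 15 tested progenitor markers, of which 2 rose (PAX6 and NES) and 1 fell (SOX9), and the part of progenitor cells in the rise of these factors was not tested. In bulk libraries fewer cells of a type and less RNA per cell cannot be told apart.

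Members of the ZIC family, zinc finger factors of the neural tube midline and cerebellum, rose. ZIC5 was measured at 11.7 to 16.4 CPM in knockdown libraries, with a median of 14.1 CPM, and at 6.64 to 8.38 CPM in controls, with a median of 7.19 CPM. There was no overlap, and the log2 change was 0.95 ± 0.09 (adjusted p = 4.17e-09). ZIC1 rose by 0.59 ± 0.12. ZIC2, the most abundant of these 3 and named after its values were seen, had 78.5 to 96.4 CPM in knockdown libraries and 52.5 to 70.7 CPM in controls (log2 change 0.52 ± 0.07, adjusted p = 1.09e-06). NFIB, a CCAAT-box factor of late neuronal and glial differentiation, rose by 0.92 ± 0.09 with 7.97 to 10.6 CPM in knockdown libraries and 4.00 to 5.68 CPM in controls. SATB1, a chromatin organiser chosen after its values were seen, went the other way, at 142 to 169 CPM in knockdown libraries and 176 to 183 CPM in controls, a log2 change of -0.25 ± 0.05.

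Factors of the midbrain, hindbrain and spinal cord split, with 5 higher and 7 lower of 33 tested, beside 3.79% and 3.3% of all genes. LHX1, a LIM-homeodomain factor of spinal and hindbrain interneurons, was measured at 17.0 to 18.7 CPM in knockdown libraries, with a median of 17.5 CPM, against at least 32.2 CPM in every control, with a median of 37.2 CPM. The knockdown libraries lay in a narrow band well under every control, and the log2 change was -1.06 ± 0.08 (adjusted p = 1.86e-10). Its divergent long noncoding RNA LHX1-DT fell by 1.08 ± 0.09. IRX3, a ventral progenitor factor, fell by 0.80 ± 0.16, TAL1, a GABAergic interneuron factor, fell by 0.81 ± 0.12, and TBX3 fell by 0.66 ± 0.15. LMX1B, which specifies serotonergic neurons and was named after its values were seen, fell by 0.43 ± 0.07, at 59.4 to 74.0 CPM in knockdown libraries and 82.4 to 96.1 CPM in controls. PAX5, a midbrain-hindbrain boundary factor, rose by 1.05 ± 0.22.

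Sensory and neural crest factors also moved both ways, with 5 higher and 3 lower of 19, beside 3.79% and 3.3% of all genes. ISL1, the LIM-homeodomain factor of sensory and motor neurons, had 6.98 to 9.53 CPM in knockdown libraries, with a median of 8.07 CPM, and 11 to 12.8 CPM in controls, with a median of 12 CPM. Its groups did not overlap, and it fell by 0.54 ± 0.10 (log2, adjusted p = 0.00047). TFAP2A, a neural crest factor, fell by 0.78 ± 0.16. TLX1, a homeobox factor of dorsal excitatory neurons named after its values were seen, rose by 0.52 ± 0.08.

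Of 29 proneural and neuronal differentiation factors 5 rose and 2 fell, beside 3.79% and 3.3% of all genes. INSM1, a zinc finger repressor of neuronal and endocrine progenitors, was measured at 31.7 to 40.8 CPM in knockdown libraries, with a median of 36.3 CPM, and at 19.3 to 26.8 CPM in controls, with a median of 22.0 CPM. The groups were apart, and the log2 change was 0.72 ± 0.10 (adjusted p = 8.27e-06). The basic helix-loop-helix factors NEUROD1 and NEUROD4 rose by 0.75 ± 0.12 and 0.48 ± 0.11, and the zinc finger factor ST18 rose by 0.76 ± 0.11. EBF2, a helix-loop-helix factor of migrating neurons, was the most abundant member that fell, at 103 to 115 CPM in knockdown libraries and 140 to 163 CPM in controls (log2 change -0.46 ± 0.04, adjusted p = 6.97e-09). INSM2, a relative of INSM1, fell by 0.80 ± 0.18. ZFHX3, a very large homeobox and zinc finger protein named after its values were seen, was measured at 65.4 to 72.8 CPM in knockdown libraries and 40.3 to 46.1 CPM in controls, without overlap (log2 change 0.72 ± 0.05, adjusted p = 4.32e-11).

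**Figure D2:**
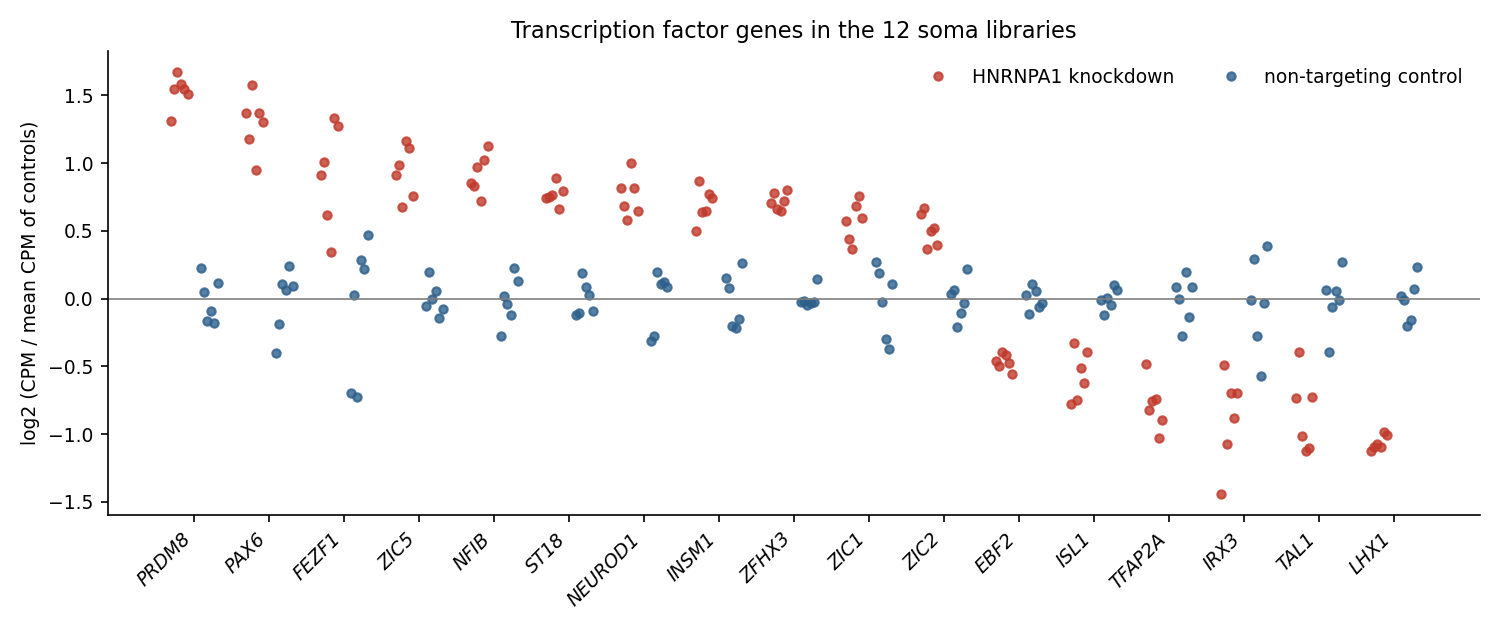
Level of 17 transcription factor genes in each of the 12 soma libraries, as log2 of the CPM over the mean CPM of the 6 controls; for each gene the 6 HNRNPA1-knockdown libraries are plotted left of the 6 non-targeting controls. PRDM8 and PAX6 lie highest above the controls, with log2 changes of 1.56 and 1.27, and LHX1 has the most negative log2 change of those drawn, -1.06, although single IRX3 and TAL1 libraries lie as low or lower.

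Extracellular matrix genes moved in both directions: 5 rose and 7 fell of 48, beside 3.79% of all genes called higher and 3.3% called lower. Tenascin C (TNC), an anti-adhesive matrix glycoprotein, was measured at 18.1 to 22.8 CPM in knockdown libraries, with a median of 20.6 CPM, against 5.87 to 6.89 CPM in controls, with a median of 6.41 CPM. Its lowest knockdown library was far above its highest control, and the log2 change was 1.7 ± 0.14 (adjusted p = 2.02e-10). All 5 called collagen genes of 35 tested rose, among them the fibrillar COL27A1, COL5A1 and COL5A2, by 1.26 ± 0.11, 0.69 ± 0.16 and 0.65 ± 0.14. BCAN, the brain proteoglycan brevican, rose by 0.71 ± 0.12. FRAS1, a basement membrane protein named after its values were seen, rose by 0.60 ± 0.05, with 106 to 129 CPM in knockdown libraries and 72.3 to 79.4 CPM in controls. Reelin (RELN), the secreted guide of neuronal migration, was measured at 54.3 to 64.8 CPM in knockdown libraries, with a median of 57.4 CPM, and at 94.6 to 111 CPM in controls. No knockdown library reached a control, and the log2 change was -0.79 ± 0.08 (adjusted p = 2.37e-08). The testican proteoglycans SPOCK1 and SPOCK2 fell by 0.61 ± 0.05 and 0.46 ± 0.08, and the secreted glycoprotein FSTL1 fell by 0.85 ± 0.11.

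Of 24 contactin and L1-family adhesion genes 7 fell and 1 rose, beside 3.3% of all genes called lower and 3.79% called higher. CNTN1, a glycosylphosphatidylinositol-anchored axonal adhesion molecule and the most abundant of those named, had 365 to 417 CPM in knockdown libraries and 478 to 525 CPM in controls, without overlap (log2 change -0.37 ± 0.06, adjusted p = 0.000105). ALCAM fell by 0.43 ± 0.05, NTM (neurotrimin) by 0.41 ± 0.07 and NCAM2 by 0.30 ± 0.06. ST8SIA4, which adds the polysialic acid chains of NCAM, was measured at 20 to 24.1 CPM in knockdown libraries and 34.2 to 45.8 CPM in controls and fell by 0.83 ± 0.07. Of 16 classical cadherin genes 1 rose and 2 fell, and of 16 protocadherin genes outside the gene clusters 1 rose and 1 fell. CDH8, among the cadherins that fell, changed by -0.56 ± 0.08, and PCDH7, the protocadherin that fell, changed by -0.60 ± 0.07. The near-identical contactin-associated genes CNTNAP3, CNTNAP3B and CNTNAP3C rose by 1.04, 1.08 and 1.07 on the log2 scale, and reads of these copies cannot be told apart from each other.

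Guidance molecules moved both ways, and the counts below stand beside 3.79% of all genes called higher and 3.3% called lower. Among netrins, slits and their receptors 4 fell and 2 rose of 20: the netrin receptor UNC5D fell by 0.52 ± 0.06 and the ligand SLIT3 by 0.51 ± 0.06, and UNC5A rose by 0.62 ± 0.11. NTNG1, a membrane-anchored netrin, fell by 0.60 ± 0.09. Of 20 ephrin and Eph receptor genes 4 fell and 2 rose. EPHA5 was measured at 18.7 to 19.9 CPM in knockdown libraries and 27.1 to 32.6 CPM in controls, with the knockdown libraries close to each other and below every control (log2 change -0.60 ± 0.06, adjusted p = 3.74e-08). Of 30 semaphorin, plexin and neuropilin genes 6 fell and 2 rose, and the plexin PLXNA4 fell by 0.45 ± 0.07.

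The clustered gamma protocadherins, cell-surface identity molecules made from alternative first exons joined to shared last exons, rose in 14 of 24 tested genes and fell in none. This family was chosen after its values were seen, and 3.79% of all genes were called higher. Its summed level was 370 to 403 CPM in knockdown libraries, with a median of 386 CPM, and 332 to 370 CPM in controls, with a median of 347 CPM, so that the groups touched. The count was 9 without controls 3, 4 and 5. Because the shared exons belong to every gene of the cluster, the members are not independent.

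Of 24 genes of cyclic GMP signalling 5 fell and 2 rose, beside 3.3% of all genes called lower and 3.79% called higher. GUCY1A1 and GUCY1B1, the alpha and beta subunits that form the nitric oxide receptor, soluble guanylate cyclase, fell together. GUCY1A1 was measured at 5.8 to 8.37 CPM in knockdown libraries, with a median of 7.48 CPM, and at 11 to 15.6 CPM in controls, with a median of 13.7 CPM. GUCY1B1 had 11.1 to 17.1 CPM in knockdown libraries and 19.6 to 23.2 CPM in controls. Neither subunit overlapped between groups, and the log2 changes were -0.87 ± 0.10 and -0.62 ± 0.09 (adjusted p = 1.59e-07 and 1.09e-05). The cyclic nucleotide phosphodiesterases PDE1C and PDE10A, which degrade the product, fell by 0.60 ± 0.06 and 0.45 ± 0.06. PCP4, a small calmodulin-binding protein, fell by 1.03 ± 0.12, at 3.85 to 6.82 CPM in knockdown libraries and 9.55 to 14.5 CPM in controls.

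Signalling genes of the BMP and TGF-beta families rose in 8 of 37 cases and fell in 1. Among all genes 3.79% were called higher and 3.3% lower. INHBE, an activin-family ligand, was measured at 7.51 to 11.7 CPM in knockdown libraries and 4.66 to 6.07 CPM in controls and rose by 0.89 ± 0.13. The ligand TGFB3 rose by 0.51 ± 0.12. TGFB2 rose by 1.29 ± 0.29 at very low levels, with at least 0.591 CPM in every knockdown library and 0.192 to 0.511 CPM in controls. Of 47 genes of FGF, EGF and neurotrophin signalling 6 rose and 2 fell, and ETV1 and DUSP5, an ETS factor and a phosphatase that are both induced by ERK signalling, rose by 0.75 ± 0.09 and 0.72 ± 0.11. Of 13 retinoid genes 2 rose: the retinaldehyde reductase DHRS3 2.24-fold and the retinoic acid carrier CRABP1 1.36-fold. The receptors IL4R, for interleukin 4, and GIPR, for an incretin hormone, rose by 1.52 ± 0.19 and 1.34 ± 0.19, both at under 6 CPM in every library.

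Ion channel genes had calls in both directions, beside 3.79% of all genes called higher and 3.3% called lower. Of 13 sodium channel genes, the voltage-gated family with the leak channel NALCN, 5 fell and none rose. SCN2A was measured at 117 to 131 CPM in knockdown libraries, with a median of 126 CPM, and at 144 to 180 CPM in controls, with a median of 158 CPM. It did not overlap between groups and fell by 0.36 ± 0.06 (log2, adjusted p = 0.00035). SCN1A, SCN3A and SCN9A fell by 0.47 ± 0.10, 0.26 ± 0.05 and 0.29 ± 0.07, and these 3 calls were lost without controls 3, 4 and 5, which left 2. NALCN fell by 0.38 ± 0.06. Potassium channel genes fell in 6 and rose in 3 of 56 cases; KCND2, the A-type channel subunit, fell by 0.46 ± 0.06, the delayed rectifiers KCNA3 and KCNC2 fell by 0.52 ± 0.08 and 0.55 ± 0.10, and the accessory subunit KCNIP4 rose by 0.61 ± 0.11. Of 15 voltage-gated calcium channel genes 1 rose and 2 fell. The one that rose was the T-type channel CACNA1G, by 0.63 ± 0.12, and its call was lost with the structured RNA share as a covariate. SLC24A2, a potassium-dependent sodium and calcium exchanger, was measured at 9.56 to 12.7 CPM in knockdown libraries and 17.9 to 24.1 CPM in controls, a fall to 50.1% of the control level (adjusted p = 7.01e-10).

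Receptors for transmitters moved both ways. Of 14 nicotinic and muscarinic receptor genes 2 rose and 3 fell. The ganglionic nicotinic subunits CHRNA3 and CHRNB4, neighbours in 1 gene cluster, rose, by 0.46 ± 0.05 and 0.59 ± 0.05. CHRNB4 had at least 39.6 CPM in every knockdown library and 24.8 to 29.6 CPM in controls, and CHRNA3 had 56.4 to 66.0 CPM in knockdown libraries and 41.3 to 45.6 CPM in controls. Among the 3 that fell was the muscarinic receptor CHRM2, by 0.57 ± 0.07. Of 17 GABA and glycine receptor genes 1 rose and 2 fell, the glycine receptor subunit GLRA2 by 0.58 ± 0.07 and the GABA-A subunit GABRA2 by 0.46 ± 0.08. At the presynapse 4 of 51 genes rose and 3 fell, beside 3.79% of all genes called higher and 3.3% called lower: the fast calcium sensor SYT2 rose by 0.65 ± 0.07, the vesicular glutamate transporter SLC17A7 rose by 0.47 ± 0.06, and SYT13 fell by 0.48 ± 0.06. SLC17A7, the marker of glutamatergic vesicles, was measured at 64.2 to 71.7 CPM in knockdown libraries and 42.9 to 56.0 CPM in controls.

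Of 24 neuropeptide and granin genes 3 rose and 4 fell, beside 3.79% of all genes called higher and 3.3% called lower. Secretogranin SCG2, a dense-core vesicle protein, was the most abundant that rose, at 68.2 to 77.4 CPM in knockdown libraries and 46.6 to 58.7 CPM in controls (log2 change 0.52 ± 0.07). Neurotensin (NTS) and somatostatin (SST) rose by 2.11 ± 0.31 and 1.04 ± 0.25 at low levels, with medians of 0.962 and 1.73 CPM in knockdown libraries and 0.256 and 0.861 CPM in controls. Substance P precursor TAC1 fell by 0.41 ± 0.07 and ADCYAP1, the precursor of PACAP, by 0.49 ± 0.07. PENK, the enkephalin precursor, fell to 45.5% of the control level (adjusted p = 4.5e-05), at 1.06 to 2.13 CPM in knockdown libraries and 2.24 to 3.68 CPM in controls. PCSK2, a convertase that cleaves several of these precursors, fell by 0.40 ± 0.07.

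Metabolic lists moved downward with small changes, and 3.3% of all genes were called lower. All 10 called genes of 24 in cholesterol synthesis fell, with a list median of -0.23, and all 9 called genes of 21 in fatty acid synthesis fell, with a median of -0.16. The medians of both lists lie below the median of 0.00 over all genes. IDI1, the isomerase of the isoprenoid units, was measured at 61 to 71.2 CPM in knockdown libraries, with a median of 67.9 CPM, and at 77.5 to 89.6 CPM in controls, with a median of 80.7 CPM. The groups did not overlap, and it fell by 0.30 ± 0.06 (log2, adjusted p = 0.00274). In fatty acid synthesis the carboxylase ACACA fell by 0.24 ± 0.05, the malic enzyme ME1 by 0.42 ± 0.10 and the elongases ELOVL2 and ELOVL6 by 0.36 ± 0.09 and 0.27 ± 0.05. ACACA had 200 to 232 CPM in knockdown libraries and 246 to 268 CPM in controls. No gene of either list passed a test against a fold of 1.2.

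Of 27 glycolysis genes 4 fell and 1 rose, and of 38 hypoxia response genes 7 fell and none rose. Among all genes 3.3% were called lower and 3.79% higher. HK2, the inducible hexokinase, was measured at 0.455 to 1.33 CPM in knockdown libraries, with a median of 0.55 CPM, and at 1.66 to 7.83 CPM in controls, with a median of 4.56 CPM. The controls spread widely and the knockdown libraries stayed under all of them (log2 change -2.54 ± 0.30, adjusted p = 3.79e-07). LDHA, lactate dehydrogenase A, fell by 0.49 ± 0.06 with medians of 46.3 CPM in knockdown libraries and 67.5 CPM in controls and no overlap. The platelet-type phosphofructokinase PFKP fell by 0.38 ± 0.06 and PDK1, which shuts pyruvate out of mitochondria, by 0.30 ± 0.06. The muscle enolase ENO3 rose by 0.62 ± 0.13. TXNIP, a glucose-induced inhibitor of glucose uptake and thioredoxin, was measured at 51.3 to 61.9 CPM in knockdown libraries, with a median of 55.7 CPM, and at 30.1 to 37.2 CPM in controls, with a median of 35.7 CPM, and rose by 0.70 ± 0.08 (adjusted p = 1.64e-07).

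NEFM, the medium neurofilament subunit and 1 of the most abundant called mRNAs, was measured at 2850 to 4030 CPM in knockdown libraries and 2050 to 2920 CPM in controls; the groups met at their edges, the log2 change was 0.42 ± 0.09, and the call was lost without controls 3, 4 and 5. Stathmin family member STMN4 rose by 0.33 ± 0.05 and the filopodial motor MYO10 by 0.73 ± 0.08. The peripheral intermediate filament PRPH fell by 0.72 ± 0.16 at under 3 CPM in every library. NES, the intermediate filament of progenitors, rose by 0.47 ± 0.06 with 287 to 324 CPM in knockdown libraries and 211 to 230 CPM in controls. Of 23 heat shock genes 2 rose and 1 fell: the co-chaperone BAG3 rose by 0.85 ± 0.11 and HSPB1 by 0.55 ± 0.14. The HSPB1 call was lost without controls 3, 4 and 5 and with the structured RNA share as a covariate. The cell-cycle inhibitor CDKN1A, the only called member of 24 p53 targets, rose by 0.82 ± 0.19, a call lost under the same alternatives. The share called among all genes was 7.09%. CCNA2, a cyclin of dividing cells, fell by 0.84 ± 0.21, a call that was lost without knockdown sample 3 and control sample 5. Of 25 immediate early and axon injury genes 5 rose and 1 fell, and ARC rose by 0.47 ± 0.11. None of 31 proteasome genes, 17 interferon-stimulated genes or 13 mitochondrially encoded protein genes was called. All 13 mitochondrially encoded genes had a positive log2 change in soma, with a median of 0.21. In neurites 12 of the 13 were called higher, where 16.2% of all genes were called in either direction.

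**Figure D3:**
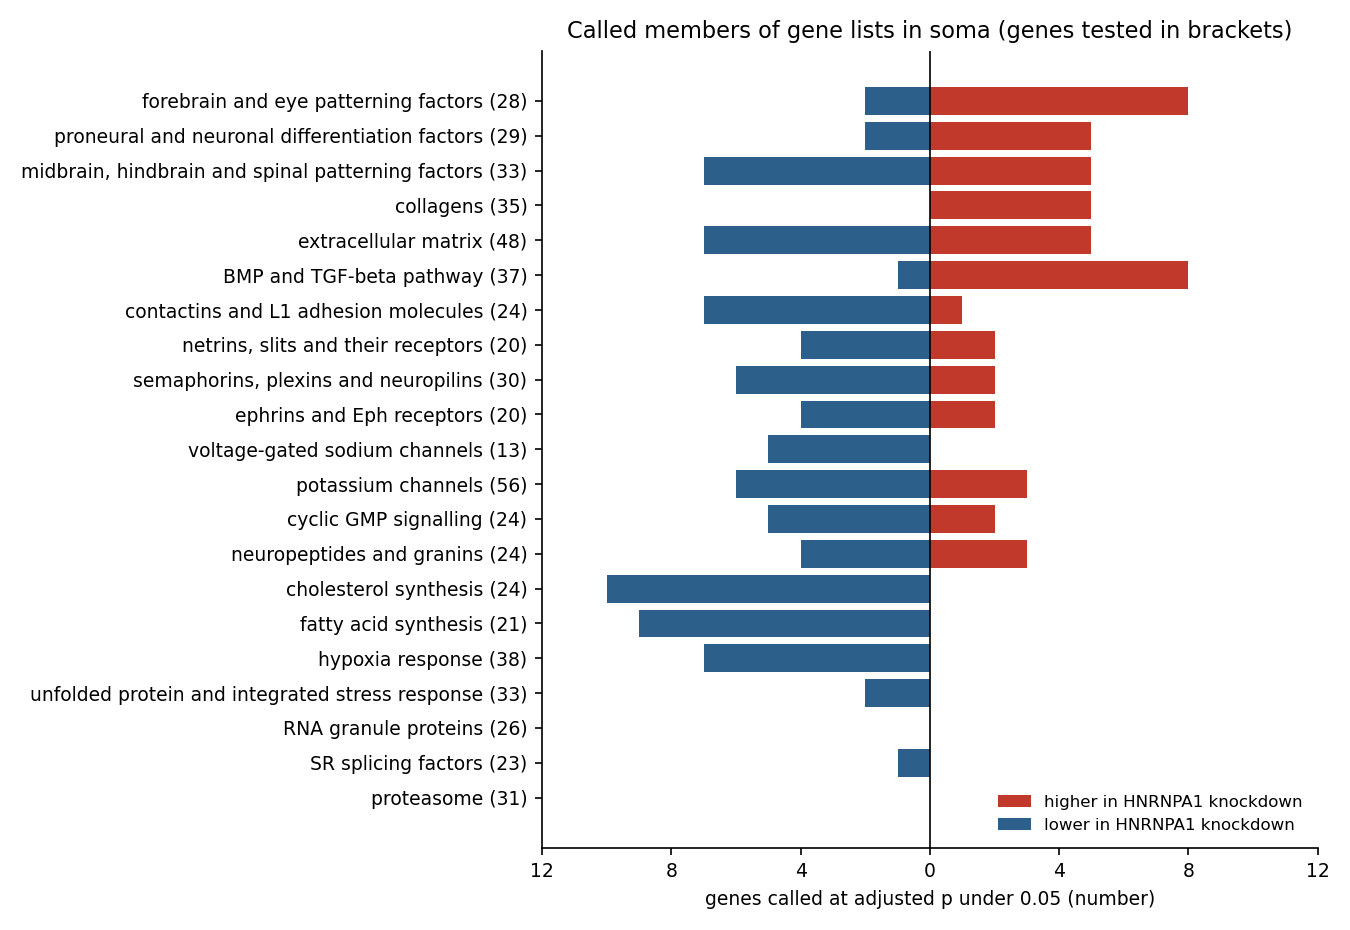
Number of genes called higher (right of 0) and lower (left of 0) in HNRNPA1-knockdown soma libraries than in control soma libraries, for 21 gene lists, with the number tested in brackets. Cholesterol synthesis, with 10 lower and none higher, and fatty acid synthesis, with 9 lower and none higher, lie on the lower side alone, while forebrain and eye factors have 8 higher and 2 lower.

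Small structured RNAs rose more often than any other class that was tested. Of 89 snoRNA genes 53 rose and of 55 snRNA genes 35 rose, with none lower, beside 3.79% of all genes that rose. Counting small Cajal body RNAs as well, 56 of 99 rose and 15 of the 99 lay above every control in all 6 knockdown libraries, as did 1.96% of all genes. snoRNAs guide chemical modification of other RNAs, with box C/D members directing methylation of ribose and box H/ACA members directing pseudouridylation, and most are cut out of introns of host genes. Here 46 of the 56 that rose lie inside a tested host gene. These 46 had a median log2 change of 0.70, while their 36 hosts had a median of -0.03, with 2 hosts higher and 1 lower. The 46 were chosen by their rise and the hosts were not, so these medians cannot be weighed against each other. Over all 99 snoRNA and scaRNA genes, called or not, the median log2 change was 0.57.

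The 4 sequences below are shown because they rose without overlap between groups and carry recognisable boxes. They are the 2 box C/D RNAs of highest level in the host SNHG14 and the 2 box H/ACA RNAs of highest level. They come from GENCODE release 29 transcripts on GRCh38, 5′ to 3′ in DNA letters, and were chosen after their values were seen. Capitals mark the C box (TGATGA) and the D box (CTGA) in the first class and the ACA near the 3′ end in the second.
SNORD116-17 (chr15:25083588-25083679, plus strand): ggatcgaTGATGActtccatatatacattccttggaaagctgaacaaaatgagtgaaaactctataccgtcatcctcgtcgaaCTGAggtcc
SNORD115-5 (chr15:25178738-25178819, plus strand): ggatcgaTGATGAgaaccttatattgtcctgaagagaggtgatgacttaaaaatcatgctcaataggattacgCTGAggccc
SNORA49 (chr12:132031224-132031359, plus strand): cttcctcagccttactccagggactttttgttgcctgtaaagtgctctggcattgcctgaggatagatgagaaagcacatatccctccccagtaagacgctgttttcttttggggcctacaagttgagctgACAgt
SNORA54 (chr11:2963771-2963893, minus strand): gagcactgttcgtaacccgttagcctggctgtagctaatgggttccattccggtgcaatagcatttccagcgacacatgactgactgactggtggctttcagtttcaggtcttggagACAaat

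SNORD116-17, from the imprinted Prader-Willi region on chromosome 15, was measured at 46.5 to 89.1 CPM in knockdown libraries, with a median of 51.2 CPM, and at 26.8 to 40.2 CPM in controls, with a median of 36.7 CPM. Knockdown sample 1 stood above the others, and the log2 change was 0.65 ± 0.13 (adjusted p = 0.00143). SNORD115-5, from the same host SNHG14, rose by 0.74 ± 0.14. Among the H/ACA RNAs, SNORA49, inside EP400, rose by 0.76 ± 0.14 with 24.7 to 32.0 CPM in knockdown libraries and 12.7 to 21.6 CPM in controls. SNORA54, inside NAP1L4, rose by 0.92 ± 0.16 with 5.82 to 8.28 CPM in knockdown libraries and 2.68 to 4.73 CPM in controls.

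In the Prader-Willi locus 11 of the 12 tested SNORD115 and SNORD116 genes rose, 7 of them without overlap, and their sum was 88.5 to 152 CPM in knockdown libraries and 48.1 to 72.7 CPM in controls. The host SNHG14 itself rose by 0.35 ± 0.08 (adjusted p = 0.00363), with 1720 to 2450 CPM in knockdown libraries and 1400 to 1920 CPM in controls, so its groups overlapped. The other 87 snoRNA and scaRNA genes summed to 2230 to 3070 CPM in knockdown libraries and to 1350 to 2350 CPM in controls. Reads of a snoRNA and of the host transcript that contains it cannot be told apart where they overlap, and SNORD copies share sequence.

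As shares of all counts, snoRNA and scaRNA took 0.298 ± 0.033% of counts in knockdown libraries and 0.224 ± 0.0397% in controls (SD, n = 6 each), a difference that passed an exact permutation test of both tails (p = 0.00866, adjusted p = 0.0375 over 13 measures). 7SL RNA, the scaffold of the signal recognition particle, took 3.02 ± 0.211% in knockdown libraries and 2.29 ± 0.569% in controls (exact permutation p = 0.00866, adjusted p = 0.0375). snRNA took 1.44 ± 0.306% in knockdown libraries and 0.868 ± 0.522% in controls and did not pass after adjustment (exact permutation, adjusted p = 0.0965). The excess of small RNA moved with the 3 controls that held the least of it. Without controls 3, 4 and 5 the count of snoRNA and scaRNA genes called higher was 6 instead of 56. With the structured RNA share as a covariate the count was 3. Both alternatives favour fewer calls by design, because the share includes these genes themselves and the 3 controls were left out for their low share. Leaving out single libraries moved the count as well. It was 29 without control 5 or without knockdown sample 1, 30 without control 3 and 36 without control 4. Processed pseudogenes followed the same direction, with 87 higher and 6 lower of 1089. The part of RNA quality or library preparation in these rises was not tested.

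**Figure D4:**
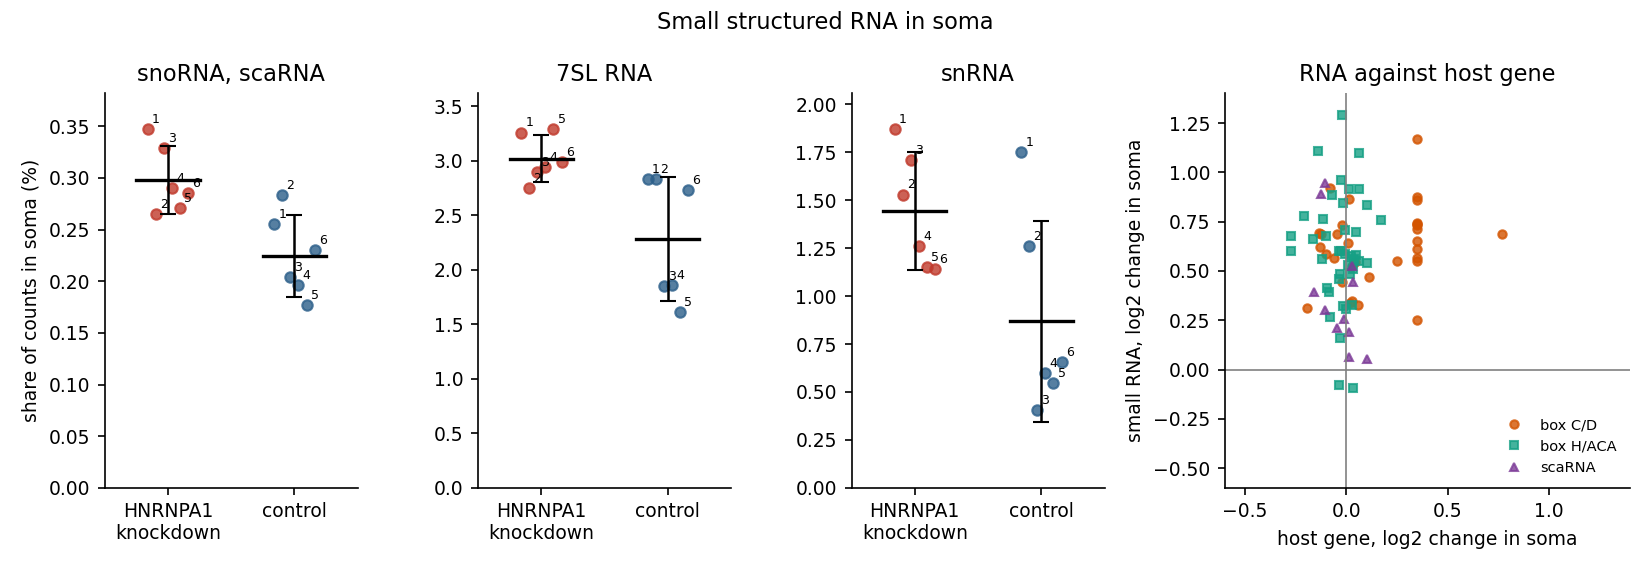
Percent of counts from snoRNA and scaRNA, 7SL RNA and snRNA in each soma library (knockdown left, control right, numbers give the sample), and the log2 change of each small RNA against that of its host gene. The 3 lowest controls for snRNA are samples 3, 4 and 5. The small RNAs inside hosts that were called higher have a median of 0.70, and their hosts have a median of -0.03. These small RNAs were chosen by their rise and the hosts were not.

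Protein-coding genes were divided by the length they span into 5 classes of equal size. The longest class, over 110 kb, had 5.5% of genes higher and 8.13% lower, the shortest class, up to 10.8 kb, had 3.63% higher and 2.48% lower, and the 3 classes between had 2.34 to 2.73% higher and 2.88 to 3.67% lower. The median log2 change was -0.02 in the longest class and 0.03 in the shortest. The gene lists were not matched for length.

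The same knockdown was measured in neurite fractions of the same experiment, with 6 libraries per group. There 3203 genes were called, 16.2% of those tested. Of the 1404 genes called in soma 784 were called in the same direction in neurites, which is 55.8% of the soma calls and 24.5% of the neurite calls, and 1 was called in the opposite direction, CRABP1. The difference of the knockdown effect between fractions, tested as an interaction, was called for 35 genes (0.177% of those tested). Of these 26 had the more positive change in soma and 9 the more negative, and 12 of the 1404 soma calls were among the 35. That fit did not pair soma and neurite libraries of 1 sample number. With such pairs as blocks in another test, limma-voom, 35 genes had the more positive change in soma and 11 the more negative. The adjusted p-values below come from the unpaired fit. HK2 had a log2 change of -2.54 in soma and 0.22 in neurites, with a difference of -2.75 ± 0.47 (adjusted p = 0.00799). TXNIP changed by 0.70 in soma and 0.00 in neurites, with a difference of 0.70 ± 0.11 (adjusted p = 0.00386). CRABP1 rose by 0.44 in soma and fell by 0.24 in neurites, a difference of 0.68 ± 0.11 (adjusted p = 0.00386). The rises of ZFHX3 and FRAS1 were larger in soma than in neurites by 0.39 ± 0.07 and 0.41 ± 0.08 (adjusted p = 0.018 and 0.0156).

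Some differences came from genes that did not pass in soma. The synaptic vesicle protein SV2C and the priming factor UNC13C had log2 changes of -0.12 and -0.20 in soma and fell by 0.87 and 0.80 in neurites, and the nuclear receptor ESRRG changed by 0.21 in soma and fell by 0.47 in neurites. CALCRL, a peptide hormone receptor, had a log2 change of -0.48 in soma and rose by 0.69 in neurites. RHOC, a small GTPase, and BTBD17 changed by 0.19 and 0.09 in soma and rose by 1.01 and 0.78 in neurites. TGFB1 changed by 0.35 in soma, a call that was lost when any of controls 2, 3 and 4 or knockdown samples 4 and 6 was left out, and rose by 1.04 in neurites. HNRNPA1 fell by 1.36 in soma and by 1.55 in neurites, and its difference between fractions did not pass (adjusted p = 0.463).

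**Figure D5:**
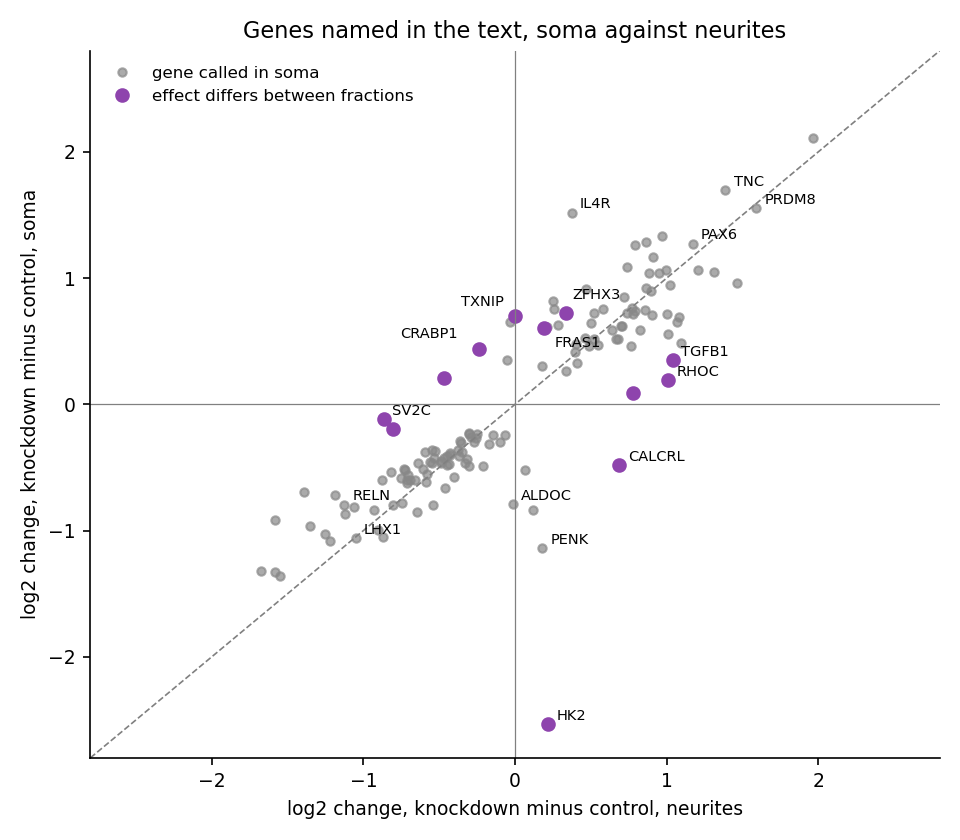
Log2 change, HNRNPA1 knockdown minus control, in soma (vertical) against neurites (horizontal) for the genes named here; error bars are not drawn, and the 12 genes whose change differed between fractions are in purple. HK2 lies at -2.54 in soma and 0.22 in neurites, TXNIP at 0.70 and 0.00.

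Against TDP-43 knockdown in soma, measured in 4 knockdown and 5 control libraries of a separate experiment with its own non-targeting controls (1 knockdown library with under 100000 counts was dropped), many changes differed in size or sign. In that comparison 18.9% of genes were called. Of 1388 HNRNPA1 soma calls that were tested there, 312 were called in the same direction, which is 22.5% of them and 7.82% of the 3990 TDP-43 calls that were tested in both fits, and 175 in the opposite direction. The effects of the 2 knockdowns differed for 600 of the 1404 calls (42.7%), beside 12.7% of all genes. The 1404 genes were chosen by the HNRNPA1 effect that is part of this difference. A higher share among them follows in part from that choice, so the shares cannot be weighed against each other. TNC rose by 1.7 with HNRNPA1 knockdown and fell by 1.96 with TDP-43 knockdown, a difference of 3.65 ± 0.28 (adjusted p = 8.09e-15). LHX1 fell by 1.06 with HNRNPA1 knockdown and rose by 0.83 with TDP-43 knockdown (difference -1.89 ± 0.11, adjusted p = 2.14e-19). SYT2 and SCG2 rose by 0.65 and 0.52 with HNRNPA1 knockdown and fell by 0.72 and 0.74 with TDP-43 knockdown. PRDM8 had a log2 change of 0.04 with TDP-43 knockdown, and the 2 effects on it differed by 1.51 ± 0.30 (adjusted p = 0.000191).

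Other genes moved together in both knockdowns. NFIB rose by 0.92 with HNRNPA1 knockdown and by 2.15 with TDP-43 knockdown. CHRNA3 and CHRNB4 rose by 0.46 and 0.59 with HNRNPA1 knockdown and by 1.08 and 1.35 with TDP-43 knockdown. PDE1C fell by 0.60 and 0.76, SLIT3 by 0.51 and 0.47 and UNC5D by 0.52 and 0.47 with HNRNPA1 and TDP-43 knockdown, and for these 3 genes the difference did not pass (adjusted p of 0.296, 0.809 and 0.767). KLHL14, a BTB-Kelch protein, fell by 1.05 with HNRNPA1 knockdown and by 2.08 with TDP-43 knockdown (difference 1.03 ± 0.12, adjusted p = 6.53e-09). HNRNPA1 itself changed by 0.09 in TDP-43 knockdown libraries and was not called there.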

How the data were processed

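RNA from 52 fraction samples had been sequenced by the authors. Per the submitters' processing notes, STAR 2.7.11b, featureCounts and Subread 2.0.6 were used with hg38; they give no annotation release, no strandedness and no rule for multiply mapped reads. The deposited unit is an estimated count per gene (expected counts, 81.1% of nonzero values whole within 0.005), rounded here before testing. The 24 hnRNPA1 libraries were fitted with edgeR 4.0.16 (R 4.3.3): filterByExpr, TMM scaling, 4 groups, quasi-likelihood tests of knockdown minus control in soma, in neurites, and their difference, with Benjamini-Hochberg adjustment; calls have adjusted p under 0.05. Libraries of the TDP-43 experiment, soma and neurite fractions together, were fitted alone and jointly with the 24 hnRNPA1 libraries. Those of under 100000 counts were left out, 1 knockdown soma library among them. CPM are TMM-scaled, and errors of log2 changes are SE. Gene positions and types come from GENCODE 29 on GRCh38. Named genes were drawn from HNRNPA1, its copies and neighbours, the called genes of largest change or highest level, called list members and called interaction genes; 10 others are marked as chosen after their values were seen, and a few results are not reported here. The members and the 63 gene lists were chosen with earlier results of these data known. The fit was tested on simulated data. No 2 libraries of a group agreed within sampling noise (30 pairs, chi-square per degree of freedom 2.51 to 30.9). Alternatives were DESeq2 1.42.0, limma-voom (limma 3.58.1), other scalings and filters, and leaving out libraries.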

Additional observations from a re-analysis of the deposited data

Results flagged for a closer look

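Of 318 groups of 6 libraries, made of each gene of the text and each measure of library composition in each condition, 18 held a library that stood apart from the other 5 by Dixon's criterion at the 95% level, and chance gives about 1 in 20 groups. Among knockdown libraries, sample 1 stood apart with 871 CPM for CBX5, 0.71 CPM for PRPH and 89.1 CPM for SNORD116-17. Sample 2 stood apart with 3.1 CPM for IL4R, and sample 3 with 68.1 CPM for ALCAM, 47.8 CPM for PDE1C and 1.97 CPM for CALCRL. Sample 6 stood apart with 132 CPM for HNRNPA3, 38.6 CPM for UPF3B, 59.0 CPM for SLIT3, 89.6 CPM for PLXNA4 and 4.33 CPM for ME1. Among controls, sample 1 stood apart with 43.92 CPM for HNRNPA1P7, 9.36 CPM for CNTNAP3B and 8.09 CPM for BAG3, and sample 6 with 46.1 CPM for ZFHX3, 35.9 CPM for SYT2 and 10.5 CPM for SOX9.

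The knockdown effect differed between soma and neurites for 12 of the genes in the text. The log2 change in soma minus that in neurites was -2.75 for HK2, -1.17 for CALCRL, -0.815 for RHOC, -0.694 for BTBD17 and -0.691 for TGFB1. It was 0.749 for SV2C, 0.699 for TXNIP, 0.678 for CRABP1, 0.673 for ESRRG, 0.606 for UNC13C, 0.409 for FRAS1 and 0.387 for ZFHX3.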

How the results depend on the processing

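Of the 135 called genes of the text tested under most settings, none changed direction in any alternative. The alternatives reuse all or most of the libraries in which these genes were called, so this is no independent check. With 1 library left out at a time the counts were 518 to 845 genes higher and 479 to 674 lower, and HNRNPA1 changed by -1.39 to -1.33; snoRNA and scaRNA genes called higher were 29 to 64. With library sizes alone as scaling, which shifted the median log2 change of all genes by -0.05, 494 genes were higher, 9 gamma protocadherin genes were higher, 64 genes had the more positive change in soma, and the difference between HNRNPA1 and TDP-43 effects was called for 583 genes higher and 710 lower, against 1400 and 1508. A test against a fold of 1.2 called 155 genes higher and 82 lower, 9 snoRNA, 2 gamma protocadherin, 3 hypoxia and 0 cholesterol, fatty acid or sodium channel genes. The 12 soma libraries alone called 37 snoRNA genes. The next 3 alternatives were chosen after seeing the data, and the structured RNA share contains the snoRNA genes that it adjusts. Without knockdown sample 3 and control sample 5 there were 458 genes higher and 426 lower, with 20 snoRNA genes. With the structured RNA share as a covariate there were 222 higher and 358 lower, with 3 snoRNA, 4 gamma protocadherin, 2 sodium channel and 4 hypoxia genes, and 96 of 133 called genes of the text kept their call. The calls lost were ARC, BCAN, C9orf72, CACNA1G, CBX5, CCNA2, CDKN1A, COL5A1, COL5A2, DHRS3, ELOVL2, ENO3, FEZF1, HSPB1, IDI1, LINC02381, ME1, NCAM2, NEFM, PAX5, PDK1, PPP1R1B, PRPH, RBM3, SCN1A, SCN3A, SCN9A, SNORD116-17, SST, STARD4, STMN4, TBX3, TGFB1, TLX1, UNC5A, UPF3B and ZIC1. Without controls 3, 4 and 5 there were 307 higher and 508 lower, with 6 snoRNA, 9 gamma protocadherin and 2 sodium channel genes, and 114 of 135 genes kept their call; cholesterol genes were then 15 instead of 10. The calls lost there were SNORA49, TGFB3 and, of those above, ARC, C9orf72, CBX5, CDKN1A, COL5A1, FEZF1, HSPB1, LINC02381, ME1, NEFM, SCN1A, SCN3A, SCN9A, SST, STARD4, TBX3, TGFB1, UPF3B and ZIC1. The cause of these changes was not tested.

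The labels do not say whether sample numbers pair knockdown and control soma libraries, and 1 of 6 same-numbered pairs had a correlation of deviations over 0.1. With the number as a replicate block, 774 genes were higher and 619 lower. In exact paired permutation tests over sample numbers the shares of snoRNA (0.0738 percentage points higher) and 7SL (0.737 higher) did not pass (p = 0.0625 each). In the same tests snRNA (0.574 higher) and ribosomal protein mRNA (-0.0459) reached the smallest p the design allows, 0.0312. So did 7SK RNA, 5S and other ribosomal RNA, mitochondrial ribosomal RNA and protein-coding genes. Unpaired, the ribosomal protein share had an exact permutation p of 0.258.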
